A study of Mus musculus with 38 samples.

Results

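The IgG control libraries of this series record where DNA was released in the absence of an antibody against a chromatin protein, and 6 of the 38 samples in the series are of this kind. They comprise 3 libraries of WT naive mouse embryonic stem (mES) cells and 3 of WT epiblast-like cells (EpiLCs), the primed cells derived from them, and all 6 were taken by their labels. The gene table holds 78202 genes, and 1241 families of transposable elements (TEs) were measured. In CUT&RUN, protein A fused to micrococcal nuclease (pA-MNase) binds an antibody and cuts the DNA close to it. Nuclease that is tethered to an antibody without a nuclear target still cuts DNA that it can reach. This background is known to be highest in accessible chromatin such as promoters, and sequences that exist in many copies gather reads from all of them. In mammals, lamina-associated chromatin is largely AT-rich, gene-poor and compact, and it is marked by LMNB1 (lamin B1) and LAP2B (an inner nuclear membrane protein that Tmpo encodes). Each of these properties bears on where background can be read.

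Naive mES cells were kept with LIF and 2 inhibitors (3 µM CHIR99021 and 1 µM PD0325901), and EpiLCs were grown with 20 ng/mL FGF and 12 ng/mL activin A. Cells of both stages were collected at 48 h, with 200000 cells in each library, and the nuclease acted for 1 h at 37 °C. Both stages come from 1 WT line, littermate of a lamin-null line and XY, which the methods describe as mostly of normal ploidy with 2 abnormal populations. Cells of the first had lost the Y chromosome, and cells of the other had also gained chromosomes 6 and 8. The control antibody was a rabbit antibody against mouse immunoglobulin, run beside LAP2B. The labels do not say whether the replicates were separate cultures, so p-values measure the spread between these libraries, which may be technical. Coverage of DNA does not show transcription, so the identity of the stages cannot be checked here by marker transcripts.

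The deposited gene value is yeast-spike-in-scaled RPKM. The values grow with gene length as a sum over the 1 kb bins that a gene touches would, and they were read as such a sum; this step is inferred from the values and is not stated in the methods. All values were whole multiples of a constant, the value of 1 read, within a tolerance of 0.1 reads. Summed over genes, the reads recovered in this way were 12028659, 45689196 and 24485177 for naive replicates 1, 2 and 3 and 21066704, 14058614 and 36280278 for EpiLC replicates 1, 2 and 3. These sums count reads in a bin once for every gene that touches it and leave out reads away from genes, so they are not the read totals of the libraries. The median gene held 36 reads in naive replicate 1 and 43 in EpiLC replicate 2, the shallowest library of each stage, against 68 to 135 in the other 4. Small genes in those 2 libraries are therefore the least precise.

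The mean deposited value was higher in every EpiLC library than in the naive libraries, but the libraries were few and uneven. RPKM is divided by depth before the spike-in factor is applied. This mean is therefore not the amount of DNA released, and the order of the libraries may differ on a scale not divided by depth. The mean gene value was 2.47, 1.78 and 2.70 in the naive libraries and 3.62, 8.03 and 3.08 in the EpiLC libraries. All 3 EpiLC values lay above all 3 naive values on this scale. EpiLC replicate 2, the shallowest EpiLC library, stood far above the rest. The difference in the mean of log2 values was 0.97, and 0.55 without EpiLC replicate 2 (exact permutation test, two-sided, p = 0.1 over the 6 libraries, which is the smallest that 3 against 3 allows; adjusted p = 0.15 over 6 such measures). The mean copy value of TEs was 0.141, 0.0955 and 0.150 in naive and 0.187, 0.443 and 0.164 in EpiLC libraries. These values carry the spike-in factors of the same libraries, so they are not a second line of evidence. Their difference was 0.92 log2 units (exact permutation p = 0.1), and 0.47 without EpiLC replicate 2. The WT LAP2B libraries, made beside the IgG, had a mean gene value of 12.9 ± 2.83 in naive cells and 12.4 ± 2.45 in EpiLCs (SD, n = 3).

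**Figure D1:**
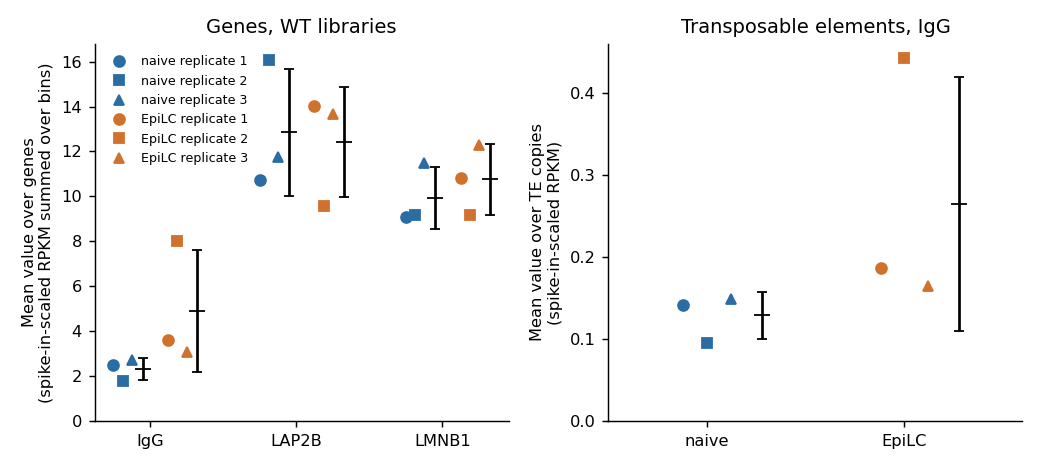
Mean deposited value per library over genes (left, spike-in-scaled RPKM summed over bins, for IgG, LAP2B and LMNB1) and over TE copies (right, IgG only). Points are libraries with the replicate shown by shape, bars are the mean with SD (n = 3), and the square at 8.03 is IgG of EpiLC replicate 2.

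Values were put on 2 scales that remove this level of the library. The relative value divides a gene's value by that of the library's median gene. The bin level divides a gene's value by its number of bins and then by the same quantity for the median autosomal gene of the library, so that 1 is the typical background whatever the length of the gene.

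The median background per bin was similar on most autosomes, with chromosome 8 above them and X and Y below. Across the autosomes other than chromosome 8, the median bin level of a chromosome's genes lay between 0.873 and 1.18 in all 6 libraries. Chromosome 8 stood above this in every library, with 1.45, 1.46 and 1.47 in naive cells and 1.46, 1.49 and 1.43 in EpiLCs. The excess ran along most of the chromosome, where 12 of 13 windows of 10 Mb exceeded 1.2 at both stages, against 1 of 241 windows on the other autosomes, which lay on chromosome 11. The WT libraries of the other antibodies gave chromosome 8 levels of 1.29 to 1.37 for LMNB1 and 1.33 to 1.44 for LAP2B. Chromosome 6 was at 1.1 ± 0.0247 in naive cells and 1.08 ± 0.0122 in EpiLCs in the IgG. The X chromosome was at 0.441 ± 0.0104 and 0.426 ± 0.0214, and the Y chromosome at 0.292 ± 0.0167 and 0.253 ± 0.0217 (SD, n = 3).

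Between the stages these levels differed little. The chromosome 8 level differed by 0.00071 log2 units (exact permutation p = 1.0). The largest shift was on Y, lower in all 3 EpiLC libraries, with a difference of -0.21 log2 units (exact permutation p = 0.1, the smallest possible; adjusted p = 0.382 over 21 chromosomes). On chromosome 19 the difference was 0.10 and on chromosome 11 it was 0.08, with the same p-values. Leaving out chromosomes 6, 8, X and Y changed the gene results little, with 283 calls in place of the 325 given below.

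**Figure D2:**
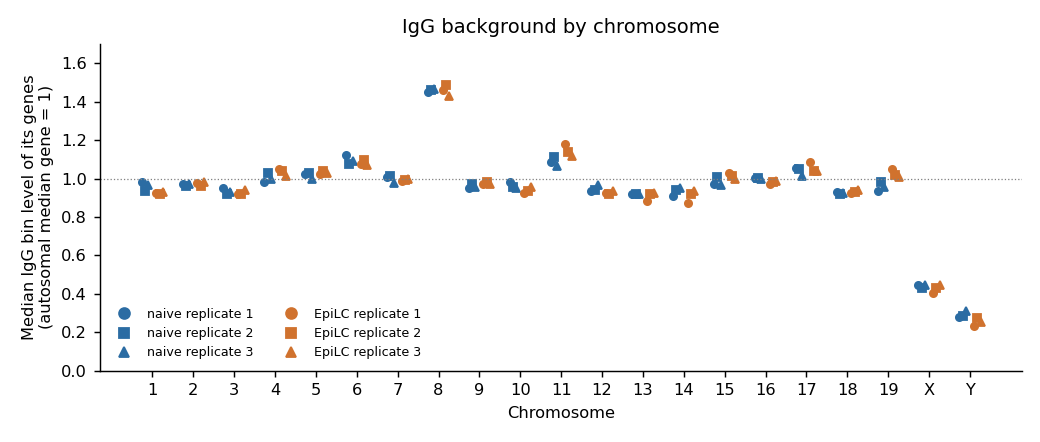
Median IgG bin level of the genes on each chromosome (1 is the median autosomal gene), with 1 point per library. Chromosome 8 sits between 1.43 and 1.49 at both stages, and X and Y lie below all autosomes.

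Background was highest close to gene starts, and there it was higher in EpiLC than in naive libraries on average. To read it without the body of the gene, non-coding and pseudogene annotations of at most 2 bins on the autosomes were ordered by the distance of their bins from the nearest protein-coding gene start. The median bin level of the 1601 within 1 kb of a start was 1.69, 1.56 and 1.53 in naive libraries and 2.31, 1.73 and 1.65 in EpiLC libraries. It was 1.23 ± 0.0334 and 1.33 ± 0.0868 at 1 to 2 kb, and 1.12 ± 0.0173 and 1.14 ± 0.0214 at 2 to 5 kb (SD, n = 3). Beyond 100 kb it was 0.940 ± 0.0411 in naive cells and 0.880 ± 0.0387 in EpiLCs, over 6672 genes. The log2 ratio of the nearest genes to those over 50 kb away was 0.75 ± 0.03 in naive cells and 1.08 ± 0.32 in EpiLCs, and the ranges did not overlap (difference 0.33, exact permutation p = 0.1, the smallest possible). EpiLC replicate 1, with 1.45, was far above the other EpiLC libraries at 0.91 and 0.89, and the difference was 0.15 without it. With only the near genes of lower GC content the difference was the same, 0.33, although their median GC content of 48.9% was still above the 42.8% of genes over 100 kb away. In the same bins the LAP2B ratio was -0.08, -0.32 and 0.00 in naive and 0.24, 0.42 and 0.66 in EpiLC libraries, so that LAP2B was also higher in EpiLCs, without overlap. The LMNB1 ratio was -0.58, 0.13 and -0.19 in naive and 0.11, -0.21 and 0.27 in EpiLC libraries, and the stages overlapped.

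**Figure D3:**
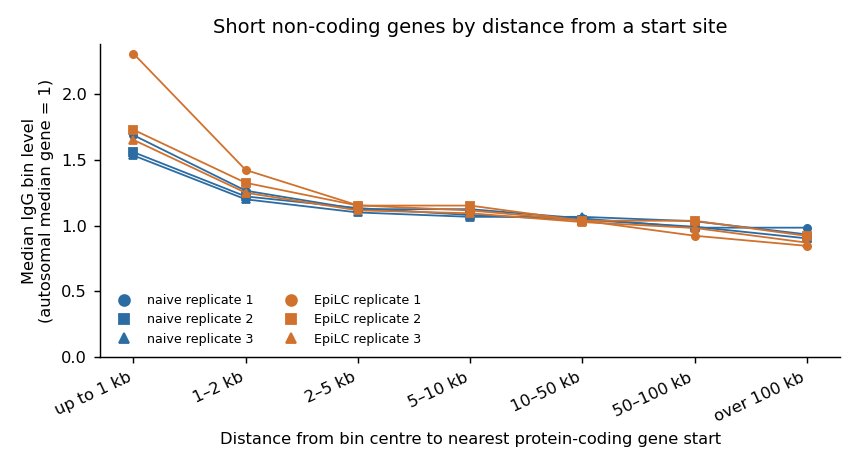
Median IgG bin level (1 is the median autosomal gene) of short non-coding and pseudogene annotations, by distance from the nearest protein-coding gene start. Each line is a library; values are highest within 1 kb and EpiLC replicate 1 reaches 2.31.

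GC content ordered the background in every library. Autosomal genes were put into 5 equal classes by GC content. In the class with the lowest GC content (up to 40.5%), the median bin level was 0.865, 0.779 and 0.825 in naive libraries and 0.692, 0.742 and 0.780 in EpiLC libraries. In the class with the highest (49.4% and above), it was 1.25, 1.29 and 1.2 in naive and 1.6, 1.37 and 1.32 in EpiLC libraries. The stages did not overlap in the highest class, and in the lowest EpiLC replicate 3 lay just above naive replicate 2. Spearman's rho of bin level with GC content, across genes, which are not independent replicates, was 0.288, 0.560 and 0.406 in naive and 0.623, 0.482 and 0.538 in EpiLC libraries, and here the stages overlapped (exact permutation p = 0.3).

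The background of genes with strong lamina contact was lower in EpiLC libraries relative to other genes. Genes were put into 4 equal classes by their naive WT LMNB1 value per bin, from libraries that share no reads with the IgG. In the class with the most LMNB1, the median bin level was 1.13, 0.968 and 1.00 in naive libraries and 0.880, 0.919 and 0.915 in EpiLC libraries. In the class with the least it was 0.750, 0.889 and 0.857 in naive and 0.923, 0.922 and 0.926 in EpiLC libraries. In both classes the stages did not overlap. The log2 ratio of the mean value per bin in the class with the most to that in the class with the least LMNB1 was 0.85, 0.48 and 0.57 in naive and 0.28, 0.29 and 0.35 in EpiLC libraries, a difference of -0.33 (exact permutation p = 0.1, the smallest possible; adjusted p = 0.15 over 6 measures). Without naive replicate 1 the difference was -0.22. With classes set by EpiLC LMNB1 it was -0.16 (exact permutation p = 0.2). Genes with few reads anywhere gathered in the class with the least LMNB1, where 14649 of 19533 genes passed the filter on low values, against 18521 to 18575 in the other classes. The median GC content of the genes tested was 47.7% in the class with the least and 41.4% in that with the most LMNB1. Whether the difference between the lamina classes holds at equal GC content was not tested.

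**Figure D4:**
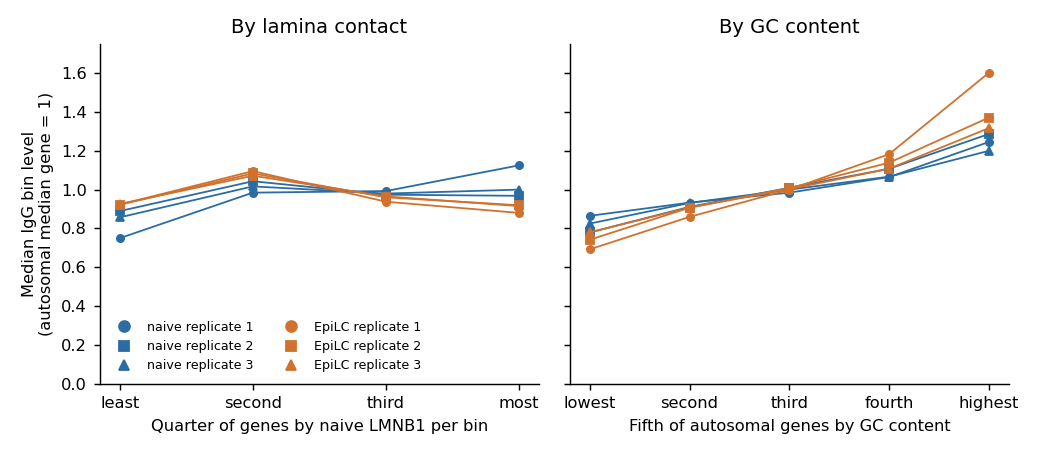
Median IgG bin level (1 is the median autosomal gene) in 4 equal classes of genes by naive LMNB1 per bin (left) and in 5 equal classes of autosomal genes by GC content (right), with 1 line per library. EpiLC lines lie above naive lines on the left of the first panel and below them on its right.

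The genes with the highest background per bin were mostly short annotations. The 10 genes with the highest bin level were chosen at each stage, keeping 1 per locus, and of the 10 naive genes only Gm36264 had more than 3 bins. The share of the summed value per bin held by the top 1% of genes was 4.42%, 3.01% and 3.12% in naive and 4.19%, 3.25% and 3.01% in EpiLC libraries (exact permutation p = 0.9). Replicate 1 was highest at both stages.

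Gm54867, annotated as ribosomal RNA on chromosome 18 (chr18:73666474-73666621, GRCm39, minus strand), led at both stages. Its bin level was 283, 98.7 and 101 in naive and 109, 27.0 and 50.04 in EpiLC libraries. It fell by 1.45 ± 0.26 on the log2 scale (relative value; SE, limma adjusted p = 0.00845), although EpiLC replicate 1 lay above naive replicates 2 and 3. The change was -0.97 without naive replicate 1 and also -0.97 without EpiLC replicate 2, and neither passed (adjusted p = 0.0962 and 0.125). Gm55073, also annotated as ribosomal RNA and the fourth highest in naive cells, lies on chromosome 6 and had 71.2, 27.0 and 26.7 in naive and 20.1, 4.03 and 13.1 in EpiLC libraries. It fell by 1.84 ± 0.30 (adjusted p = 0.00479), or by 1.21 without EpiLC replicate 2 (adjusted p = 0.0493), and the stages did not overlap. Reads behind these values ranged from 1121 to 2787 for Gm54867 outside EpiLC replicate 2, which had 234, and from 35 to 762 for Gm55073.

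A pair of processed pseudogenes on chromosome 4 ranked between them in naive cells. Gm12895 (chr4:122349003-122349228) had bin levels of 122, 31.8 and 42.2 in naive and 45.5, 22.0 and 18.8 in EpiLC libraries. Gm12896 (chr4:121956116-121956341) had 113, 32.3 and 41.7, then 43.1, 22.8 and 18.7. The similar values go with similar sequence, since 224 of their 226 bases are shared and all 32-base words in their bins occur more than once in the assembly, so reads cannot be assigned between them. They fell by 1.06 ± 0.25 (adjusted p = 0.0421) and 1.04 ± 0.24 (adjusted p = 0.0363), although EpiLC replicate 1 lay above naive replicates 2 and 3. Without naive replicate 1 the changes were -0.52 and -0.53 (adjusted p = 0.346 and 0.313). The calls were also lost without any 1 of the EpiLC libraries, with changes from -0.82 to -1.41.

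The sequences of Gm55073 and Gm12895, from the GRCm39 assembly, are shown because both genes ranked among the 4 highest bin levels in naive cells, and capitals mark the 224 bases of Gm12895 that Gm12896 shares.
Gm55073 (chr6:94803762-94803904, minus strand): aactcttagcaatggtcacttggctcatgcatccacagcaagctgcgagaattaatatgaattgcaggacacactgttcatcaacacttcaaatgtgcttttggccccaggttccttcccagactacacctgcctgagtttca
Gm12895 (chr4:122349003-122349228, plus strand): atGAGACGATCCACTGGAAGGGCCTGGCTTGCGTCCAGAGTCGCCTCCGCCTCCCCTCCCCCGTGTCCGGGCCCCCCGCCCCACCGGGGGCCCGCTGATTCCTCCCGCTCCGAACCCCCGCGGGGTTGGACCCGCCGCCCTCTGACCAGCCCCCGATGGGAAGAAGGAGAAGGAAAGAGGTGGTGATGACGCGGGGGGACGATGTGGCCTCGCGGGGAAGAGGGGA

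The share of repeated sequence varied widely among the genes with high bin levels. Of the 32-base words in the bin of Gm54867, 2.68% occurred more than once in the assembled chromosomes, and in that of Gm55073 it was 10.2%. Over the 11 genes that ranked among the 10 highest at either stage the median share was 15.5%, with a range of 0% to 100%, against 12.2% over the 10 single-bin genes nearest to a level of 1. Copies that the assembly leaves out are not counted in these shares. Rn7s1, the 7SL RNA of the signal recognition particle (chr12:69206069-69206368), had 13.5, 12.1 and 10.9 in naive and 5.69, 4.84 and 9.33 in EpiLC libraries. The stages did not overlap, while the change of -0.91 ± 0.23 did not pass (adjusted p = 0.0536). Taco1os, an antisense transcript at the locus of a mitochondrial translation factor, had 61.0, 18.1 and 17.9 against 25.9, 9.72 and 10.5 (change -0.99 ± 0.26, adjusted p = 0.0641).

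Gm36264 was the exception in length. This long non-coding RNA on chromosome 13 (chr13:9051468-9126500) covers 76 bins and kept a bin level of 19.4, 9.30 and 9.53 in naive and 12.7, 3.31 and 5.87 in EpiLC libraries. It fell by 0.97 ± 0.22 (adjusted p = 0.0364), although naive replicates 2 and 3 lay below EpiLC replicate 1. The change was -0.51 without EpiLC replicate 2 (adjusted p = 0.304), -0.65 without naive replicate 1 (adjusted p = 0.265) and -0.94 without EpiLC replicate 3 (adjusted p = 0.105), and none of these passed. The stages overlapped in other leaders. D530033B14Rik on chromosome 7, a long non-coding RNA of 15 bins, had 7.84 ± 0.481 and 7.97 ± 0.559, and Gm55472 had 43.1, 12.4 and 15.4 against 21.5, 9.05 and 14.6 (adjusted p = 0.33). Ptp4a1 and Smkr-ps also ranked among the 10 at both stages, with 10.5 ± 1.66 and 12.1 ± 3.4 in naive cells. Their single bins come from annotations of 108 and 198 bases, where RefSeq has 9575 and 8203, and a gene that covers the bin of Ptp4a1 has a lower value than Ptp4a1 itself, so the levels of these genes may rest on more than 1 bin.

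Among protein-coding genes of at least 10 kb, the background was far more even. The 5 highest in naive cells were Itln1, Mast3, Cd244a, Pgpep1 and Ap1m1, and in EpiLCs Mast3, Itln1, Ssbp4, Cd244a and Ano8. Of these 7 genes, 5 lie on chromosome 8. Mast3, a microtubule-associated kinase on chromosome 8, had 3.97, 2.92 and 2.74 in naive and 4.85, 2.57 and 3.06 in EpiLC libraries. Itln1 and Cd244a, which encode a lectin and a receptor of natural killer cells, are close neighbours on chromosome 1. Itln1 had 3.36 ± 0.444 and 3.13 ± 0.413, and Cd244a had 3.11 ± 0.212 and 2.71 ± 0.0949 (SD, n = 3). None of the 7 passed the test between stages, with adjusted p from 0.27 for Cd244a to 0.958 for Ap1m1.

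A small number of genes shifted between the stages once the level of the library was removed. Of 70382 genes tested with limma on log2(relative value + 0.1), 325 passed an adjusted p of 0.05, which is 0.462% of them. Of these, 50 rose in EpiLCs (0.071%) and 275 fell (0.391%), and 9126 genes had an unadjusted p under 0.05. On the deposited scale, which keeps the spike-in factor, limma called 0 genes (24308 at an unadjusted p under 0.05), and edgeR on the recovered reads called 1; the median change there was 0.92 log2 units. Without EpiLC replicate 3 that count was 11613 and without EpiLC replicate 2 it was 93, all of them higher, and the median change without EpiLC replicate 2 was 0.53. On the relative scale, edgeR called 529 genes (123 higher, 406 lower), and scaling by the library mean gave 509 (210 higher, 299 lower). Without the filter on low values 0 genes were called (8232 at an unadjusted p under 0.05), and with a pseudocount 10 times smaller 80 were. Without EpiLC replicate 1 the count was 7, without EpiLC replicate 2 it was 11, without naive replicate 1 it was 30 and without naive replicate 3 it was 129. It was 461 without naive replicate 2 and 369 without EpiLC replicate 3.

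The genes that rose and those that fell differed in kind. Those that fell were mostly long, AT-rich and high in LMNB1. Their median length was 75 bins and their median GC content 39.6%, against 6 bins and 44.8% over all genes tested. Of the 275, 249 lay in the class with the most naive LMNB1, where 18568 genes were tested, and 0 in the class with the least. Those that rose had a median of 9 bins and a GC content of 53.1%, and 23 lay in the class with the least LMNB1 and 22 in the next. Genes of low value are tested with less precision, and the median mean read number was 1090 in those that fell and 199 in those that rose. Neighbouring and overlapping genes share bins: joined over gaps of up to 100 kb, the 275 formed 217 loci and the 50 formed 47.

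The 12 protein-coding genes with the largest rises, 1 per locus, were Noc4l, Nat14, Sh3bgrl3, Rps9, Skor1, Icam5, Trim72, Paxx, Fam131a, Fam210b, Cbx6 and Hapln4, and all had libraries that did not overlap between the stages, as the rule required. Skor1, a transcriptional corepressor of the SKI family (chr9:63045452-63056243), had the smallest adjusted p. Its relative value was 1.97, 2.13 and 1.99 in naive and 5.25, 3.86 and 3.67 in EpiLC libraries, a rise of 1.02 ± 0.18 on the log2 scale (SE, limma adjusted p = 0.00717). The naive libraries were nearly equal and the lowest EpiLC library was well above them. Icam5, a neuronal adhesion molecule, had 2.06, 2.38 and 2.00 against 5.90, 4.67 and 3.00 (0.99 ± 0.19, adjusted p = 0.0136). Cbx6, a chromodomain protein of Polycomb repressive complex 1, had 2.64, 3.6 and 2.75 against 6.84, 4.58 and 4.49 (0.79 ± 0.17, adjusted p = 0.0309).

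Noc4l, which acts in ribosome assembly in the nucleolus, had 0.556, 1.61 and 1.03 in naive and 2.43, 2.53 and 2.02 in EpiLC libraries (1.16 ± 0.26, adjusted p = 0.0337). Rps9, a protein of the small ribosomal subunit, had 0.861, 0.548 and 1.14 against 1.94, 1.67 and 1.95 (1.09 ± 0.25, adjusted p = 0.0375). Paxx, a factor of non-homologous end joining, had 1.92, 1.92 and 1.69 against 3.54, 3.86 and 2.91 (0.86 ± 0.18, adjusted p = 0.0295). In all 3 the EpiLC libraries lay close together. The read numbers were small, 20 for Noc4l in naive replicate 1 and 109 in EpiLC replicate 2. The rises of the other 6, Nat14, Sh3bgrl3, Trim72, Fam131a, Fam210b and Hapln4, lay between 0.78 and 1.13 with adjusted p from 0.031 to 0.0398.

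The 12 largest falls were in Or10ag56, Pramel21, Or12e14, Pramel7, Or1e25, Ambn, Speer1c, Or12e8, Sec61g, Pramel31, Serpina3i and Pramel11. The genes named Or encode olfactory receptors, G protein-coupled receptors of the nasal epithelium, a family in which 5 of 1111 genes tested fell, where 0.391% of all genes did. Those named Pramel belong to the Prame-like family, which is expressed in germ cells and early embryos. Or10ag56 (chr2:87137925-87143965) had a relative value of 2.03, 1.28 and 1.46 in naive and 0.412, 0.558 and 0.778 in EpiLC libraries, a fall by 1.32 ± 0.27 (adjusted p = 0.0252). Pramel7 (chr2:87319431-87327437) had 3.17, 2.33 and 2.53 against 0.853, 1.42 and 1.15, and fell by 1.18 ± 0.22 (adjusted p = 0.0118). Both lie in 1 locus of 235 kb on chromosome 2 that held 5 called genes, all lower, among them Or12e8.

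Reads in these families cannot all be placed. In the bins of Pramel21, Pramel31 and Pramel11, on chromosome 4, 50.5% to 54.1% of 32-base words occurred more than once in the assembly, and in those of Speer1c it was 73.7%, so their values are uncertain. In Pramel7 it was 16.3% and in Or10ag56 it was 19.3%, and among the 12 risers it was at most 8.19%. Genes with few repeated words fell too. Ambn, which encodes the enamel protein ameloblastin (chr5:88603850-88616390), had 5.33% of such words and relative values of 4.69, 2.45 and 3.32 in naive and 1.51, 1.58 and 1.48 in EpiLC libraries (fell by 1.09 ± 0.20, adjusted p = 0.0118). Sec61g, a subunit of the protein translocon, had 3.68% of such words and 2.69, 2.24 and 2.28 against 1.22, 0.767 and 1.5 (fell by 1.03 ± 0.23, adjusted p = 0.0337). The EpiLC values of Ambn were almost the same in all 3 libraries, whereas its naive values spread.

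**Figure D5:**
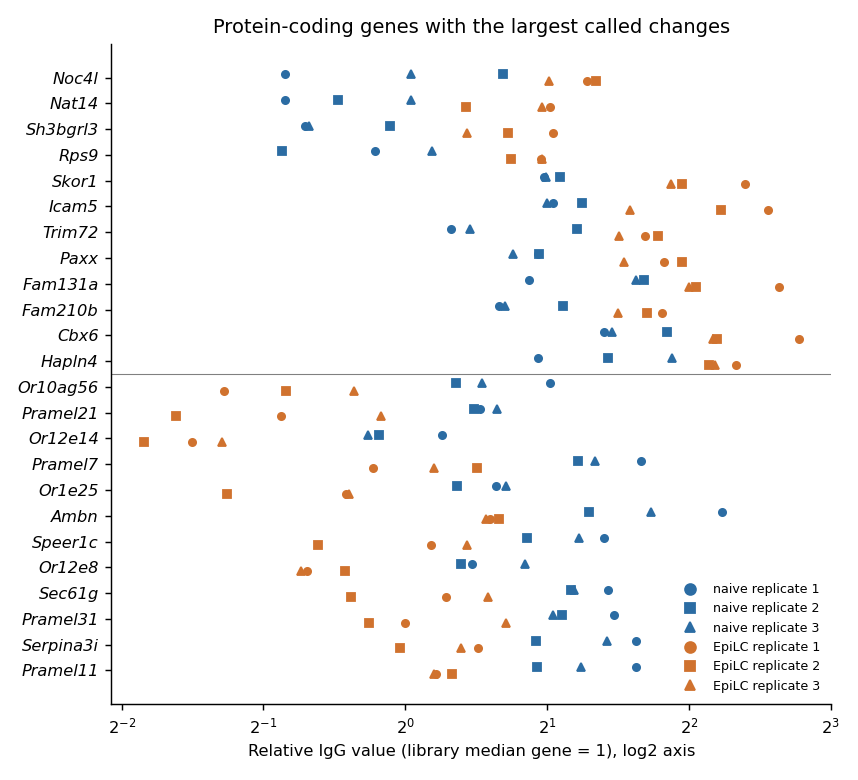
Relative IgG value (library median gene = 1, log2 axis) of the 12 protein-coding genes with the largest rises (above the line) and the 12 with the largest falls (below it). Each point is a library with the replicate shown by shape, and naive and EpiLC points do not overlap in any of the 24 genes, which was a condition of the choice.

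CG dinucleotides were counted at the starts of the called genes. In the 200 bases upstream of the annotated start, on the strand of the gene, the 28 protein-coding genes that rose held a median of 9 CG dinucleotides and the 123 that fell a median of 3, against 5 over 20855 protein-coding genes tested. At least 10 CG were found in 46.4% of those that rose, 19.5% of those that fell and 31.9% of all, while 10.7%, 11.4% and 9.92% had no CG. The ranges overlapped: among the 12 named risers Trim72 had 1, Nat14 and Paxx 2 and Icam5 5, and among the 12 named fallers Pramel7 had 4. The stretches upstream of Skor1, with 29 CG, the most of the 24, Or10ag56, with 0, and Ambn, with 1, are shown as examples of this range, from GRCm39 with CG in capitals.
Skor1 (chr9:63056244-63056443, minus strand): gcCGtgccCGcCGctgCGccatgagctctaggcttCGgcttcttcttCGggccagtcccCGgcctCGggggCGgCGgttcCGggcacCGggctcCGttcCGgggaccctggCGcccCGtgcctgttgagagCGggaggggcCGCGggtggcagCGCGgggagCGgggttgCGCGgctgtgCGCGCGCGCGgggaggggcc
Or10ag56 (chr2:87137725-87137924, plus strand): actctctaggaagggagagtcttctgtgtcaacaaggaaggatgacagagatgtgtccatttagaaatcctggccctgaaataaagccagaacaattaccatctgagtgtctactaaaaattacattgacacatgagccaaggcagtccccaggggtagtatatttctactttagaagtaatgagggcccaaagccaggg
Ambn (chr5:88603650-88603849, plus strand): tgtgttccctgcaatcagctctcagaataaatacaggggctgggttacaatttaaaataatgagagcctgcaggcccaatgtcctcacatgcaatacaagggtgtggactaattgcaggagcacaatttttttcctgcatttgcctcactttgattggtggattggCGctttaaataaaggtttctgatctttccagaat

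Genes that define the stages were mostly not called. Among 16 naive pluripotency factors, 0 rose and 1 fell (0.071% and 0.391% of all genes did), with a median change of -0.17, against -0.013 over all genes tested. The member that fell was Tet2, an enzyme that oxidises 5-methylcytosine, with relative values of 25.3, 21.4 and 19.3 in naive and 15.4, 15.5 and 15.6 in EpiLC libraries (fell by 0.49 ± 0.11, adjusted p = 0.0315). The call was lost without naive replicate 1 and without any 1 EpiLC library (adjusted p from 0.0566 to 0.165). Klf2 and Nr0b1 had the highest changes of this list at 0.09 and 0.27, and Klf5 was at -0.34. Among 16 primed epiblast genes 0 were called, the median change was 0.22, and 7 had all EpiLC libraries above all naive ones, where 7.48% of all genes did. Pou3f1 was at 0.56 ± 0.26 (adjusted p = 0.35) and Lef1 at 0.38 ± 0.11 (adjusted p = 0.09), while Sox3 was at -0.39 and Foxd3 at -0.42. The 7 shared pluripotency genes had 0 calls and a median of 0.12, from Dppa2 at -0.59 ± 0.17 (adjusted p = 0.0892) to Lin28a at 0.42 ± 0.15.

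In the lineage, germline, housekeeping and other lists that follow, 1 gene was called, and most members of each list had positive changes. The 17 mesoderm and endoderm regulators had a median of 0.20 (0.05 without naive replicate 1, 0.36 without naive replicate 3), with Lefty1 highest at 0.91 ± 0.23 (adjusted p = 0.0627) and Sox17 lowest at -0.41. The 16 germline genes silenced on priming had a median of 0.12 (0.24 without EpiLC replicate 1, 0.04 without EpiLC replicate 3, 0.07 without chromosomes 6, 8, X and Y), the 15 housekeeping genes 0.18, the 12 nuclear envelope genes 0.11 (0.07 without naive replicate 1) and the 13 tested neighbours of ES cell super-enhancers 0.14 (0.08 without naive replicate 1, 0.09 without EpiLC replicate 1). The 39 Hox genes had a median of 0.32, and 11 had all EpiLC libraries above all naive ones, where 7.48% of all genes did. Of 88 ribosomal protein genes tested, 1 rose (Rps9, where 0.071% of all genes did), the median was 0.30 and 24 had all EpiLC libraries above, where 7.48% of all genes did. The 24 tested replication-dependent histone genes had a median of 0.20 (0.07 without EpiLC replicate 1, 0.33 without EpiLC replicate 2) and the 58 clustered protocadherin genes 0.15, both with 0 calls. Of 969 tested genes in the microRNA list 0 were called, with a median of 0.08 (0.04 without naive replicate 1). Among all 1629 annotated microRNAs tested, which are more than the list holds, 1 was called and rose, where 0.071% of all genes did. The median GC content of these lists ran from 39.8% for the germline list to 51.8% for the Hox genes, against 44.8% over all genes tested.

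Receptor families and genes of the 2-cell-like state lay on the other side. Of 1111 olfactory receptor genes tested, 0 rose and 5 fell (0.391% of all genes fell), with a median change of -0.24, and 186 had all EpiLC libraries below all naive ones, where 10.3% of all genes did. Of 261 vomeronasal receptor genes tested, 1 fell and the median was -0.21 (-0.12 without EpiLC replicate 1). Of these, 61 had all EpiLC libraries below, where 10.3% of all genes did. Their median GC content was 36.6% and 37.6%. The 13 tested genes of the 2-cell-like state, including members of the multicopy Zscan4 and Usp17l families whose reads cannot all be placed, had 0 calls and a median of -0.36. Zscan4e had 1.28, 1.18 and 1.33 in naive and 0.647, 0.721 and 0.685 in EpiLC libraries, without overlap (-0.80 ± 0.26, adjusted p = 0.147). Zscan4b and Zscan4d, by contrast, were at 0.14 and 0.10. Scaled by the library mean, the medians of the olfactory, vomeronasal and 2-cell-like lists were -0.14, -0.14 and -0.23.

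TE families were compared by the mean over their copies, divided by the median family of the library. The highest values per copy were those of a pair of satellite families, while the median of the 7 satellite families tested was 1.14 to 1.23 times the median family. The major satellite GSAT_MM, the repeat of mouse pericentromeres, was at 1523, 1417 and 1825 times the median family in naive and 1901, 2677 and 1561 times in EpiLC libraries, over 51 annotated copies. The single highest copy held 49.2% to 59.2% of the family's sum, and the family held 1.74% to 2.22% of the summed TE value in naive and 1.93% to 3.20% in EpiLC libraries. SYNREP_MM followed at 250 ± 55.5 and 317 ± 97.1 (SD, n = 3). Neither passed the test (changes of 0.34 ± 0.32 and 0.33 ± 0.31, adjusted p = 0.631 and 0.638).

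The next 2 families were set by a few copies. Tigger17d, a DNA transposon, had 32.7, 23.2 and 22.0 in naive and 59.2, 56.7 and 28.1 in EpiLC libraries, and 3 of its 273 copies held 95.7% to 98.3% of the family's sum. FordPrefect had 16.1, 7.32 and 8.30 against 10.9, 3.73 and 5.43, and 3 of its 270 copies held 75.3% to 94.0%. Replicate 1 was the highest FordPrefect library at both stages. Their changes of 0.83 ± 0.32 and -0.71 ± 0.44 did not pass (adjusted p = 0.322 and 0.47).

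Below them came young LINE-1 and IAP elements, which are among the retrotransposons that remain active in mice. L1MdA_I had 4.26, 3.5 and 3.66 in naive and 3.83, 3.45 and 3.24 in EpiLC libraries, and L1MdTf_I had 3.79, 3.45 and 3.57 against 4.23, 4.06 and 3.58. The stages overlapped for both, by 1 EpiLC library in L1MdTf_I (change 0.13 ± 0.08, adjusted p = 0.449). IAPEz-int had 2.63, 2.74 and 2.83 against 2.83, 3.45 and 2.55 over 7601 copies. MERVL-int, the endogenous retrovirus of the 2-cell-like state, had 2.51 ± 0.00965 in naive cells and 2.51 ± 0.103 in EpiLCs. The methods give 10 kb bins for TEs, so a copy's value may also cover the DNA around it, and levels are not compared between families per length.

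The shift of TE families between the stages was small. Of 1205 families with at least 10 copies, limma called 3 on the relative scale (0.249%), of which 1 rose (0.083%) and 2 fell (0.166%), and 177 had an unadjusted p under 0.05. On the deposited scale limma called 0, and 9 had an unadjusted p under 0.05. The 2 that fell belong to the RLTR13 long terminal repeats of the ERVK class. RLTR13B2 had 1.96, 1.89 and 1.82 in naive and 1.36, 1.43 and 1.43 in EpiLC libraries over 312 copies (fell by 0.40 ± 0.04, adjusted p = 0.0164). RLTR13B1 had 1.35, 1.27 and 1.28 against 1.03, 1.03 and 1.04 over 1045 copies (fell by 0.30 ± 0.03, adjusted p = 0.0164). The 1 that rose, CR1-L3A_Croc, has 20 copies, below the minimum of 100 set for naming, and was chosen after its values were seen. It was at 0.834, 0.836 and 0.823 against 0.937, 0.957 and 0.980 (0.18 ± 0.02, adjusted p = 0.0407). With the median over copies, or with the replicate number as a block, 0 families were called, and without any 1 library at most 1 was.

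Groups of related families held no other calls among those described here. Of 23 RLTR13 families tested, 2 fell, 19 had negative changes and 11 had all EpiLC libraries below all naive ones, where 16.7% of all families did. Their median change was -0.08, against -0.009 over all families. RLTR13D6 had 2.10, 1.86 and 1.83 against 1.6, 1.47 and 1.53 (-0.31 ± 0.06, adjusted p = 0.14), and RLTR9D and RLTR9E were at -0.27 and -0.23. The median change of 17 L1Md LINE-1 families was -0.06, and -0.04 without naive replicate 1. It was -0.03 with the median over copies, -0.18 scaled by the library's median gene and -0.26 by the library mean. Of the 17 families, 14 had negative changes on the main scale. These were the 7 L1MdA, 5 L1MdF and 2 L1MdGf families, while all 3 L1MdTf families had positive ones, from 0.03 to 0.13. Of 21 rodent Lx LINE-1 families 20 had negative changes (median -0.11), 18 of them with all EpiLC libraries below, where 16.7% of all families did. That median was -0.06 with a pseudocount 10 times larger, -0.21 scaled by the library's median gene and -0.29 by the library mean. SINE families, which lie in GC-rich, gene-rich DNA, mostly had changes above that of the median family. All 10 B1 families and all 3 B2 families had positive changes (medians 0.05 and 0.06, with B1 at 0.03 without naive replicate 1), and of 34 SINE families tested 32 did, with 10 having all EpiLC libraries above, where 5.64% of all families did. With the median over copies, 8 of the 10 B1 families and 24 of the 34 SINE families had positive changes, and the B2 median was 0.12. Scaled by the library's median gene in place of its median family, 87 families were called (2 higher, 85 lower), with the median family at -0.12 on that scale. The directions of the SINE and L1MdTf families depend on this choice: on that scale 33 of the 34 SINE families had negative changes, with medians of -0.06 for B1 and -0.05 for B2, and 16 of the 17 L1Md families did. Scaled by the library mean over families, all 34 and all 17 had negative changes, with the median family at -0.20.

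Most genes called in the IgG were also called, in the same direction, under the other antibodies. LAP2B in the same WT cells gave 17414 calls between the stages from libraries of its own (24.7% of genes, 10.4% higher and 14.4% lower). LMNB1 gave 9445 (13.4%, 6.36% higher and 7.06% lower). Of the 325 genes called in the IgG, 293 were also called for LAP2B in the same direction and 1 in the opposite direction, and 214 and 2 were for LMNB1. Across the 70382 genes, which are not independent replicates, the change in IgG correlated with that in LAP2B (Pearson's r = 0.449, Spearman's rho = 0.470) and in LMNB1 (r = 0.399, rho = 0.422). The median size of a change was 0.19 log2 units in the IgG, 0.37 in LAP2B and 0.30 in LMNB1. Skor1 changed by 1.02 in the IgG, 1.05 in LAP2B and 1.07 in LMNB1, and Pramel7 changed by -1.18, -1.52 and -1.35. Noc4l, Sh3bgrl3 and Fam210b were called for neither, with the smallest changes in Fam210b (0.29 for LAP2B, adjusted p = 0.35, and 0.11 for LMNB1, adjusted p = 0.744). A test of the difference between the IgG change and that of the antibody gave 168 genes for LAP2B (0.239%), with the IgG change above in 0.142% and below in 0.0966% of genes tested. For LMNB1 it gave 20 genes (0.0284%), above in 0.0242% and below in 0.00426%. Nuclease background is also part of any antibody library, and its share in these changes was not tested.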

How the data were processed

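IgG CUT&RUN libraries of WT naive mES cells (n = 3) and EpiLCs (n = 3) were grouped by their labels, with LAP2B and LMNB1 libraries of the same cells beside them. The deposited values are coverage signal made by the authors: reads were aligned with Bowtie2 2.3.5.1, handled with SAMtools 1.10 and binned with deepTools, normalised to RPKM, and multiplied by a yeast spike-in factor. For TEs the methods give 10 kb bins with blacklisted regions kept. That gene and TE values are sums over bins was inferred from the values. Reads without molecular identifiers are not independent molecules. Gene starts and lengths came from GENCODE M39 on GRCm39, which matched 99.9% of gene identifiers, and comparison lengths from RefSeq.

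Log2(relative value + 0.1) was tested with limma 3.58.1 in R 4.3.3 with Benjamini-Hochberg adjustment over all features, after removal of the tenth of genes with the lowest values and of TE families under 10 copies. On the deposited scale, 0.1 times the median value over all features and libraries was added in place of 0.1. Scripts ran in Python 3.11.15 (pandas 2.3.3, numpy 2.4.6, scipy 1.17.1), and each library measure was compared by an exact two-sided permutation test. edgeR 4.0.16 on the recovered reads was an alternative. The limma test was also run on counts simulated around the naive means with the same dispersion in every gene and library. These data are less even than that, so the run cannot vouch for the calls given here. Named genes were the 10 highest bin levels at each stage and the 5 highest among protein-coding genes of 10 kb or longer, 1 per locus; the 12 largest rises and falls among called protein-coding genes without overlap between stages; and the 2 highest and 2 lowest changes of each list. Named TE families were the 10 highest at each stage and the called ones with at least 100 copies. Members and lists were chosen with earlier results of these data known. The start-site distances, 10 Mb windows, loci, repeated words and upstream CG counts were added after seeing the data. Modified z scores that the authors deposited were not used.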

Additional observations from a re-analysis of the deposited data

Results flagged for a closer look

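The change between stages in the IgG differed from that in LAP2B for 168 of 70382 genes (0.239%), by a test of the difference itself in limma. In 100 of them the IgG change lay above the LAP2B change, and in 68 it lay below. In the first group the median change was -0.08 in the IgG and -0.91 in LAP2B, and LAP2B was below 0 in all 100. In the second it was 0.03 in the IgG and 0.97 in LAP2B, and LAP2B was above 0 in all 68. Serpinc1, which encodes antithrombin, changed by -1.59 in LAP2B and had -0.26 in the IgG (difference 1.33 ± 0.20, adjusted p = 0.00171). Sf1, a splicing factor, changed by 1.34 in LAP2B and had -0.03 in the IgG (difference -1.37 ± 0.25, adjusted p = 0.0103). These genes were chosen after their values were seen.

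The same test against LMNB1 gave 20 genes (0.0284%), 17 with the IgG change above and 3 with it below. For the 17 the median change was 0.02 in the IgG and -0.997 in LMNB1. Rsbn1l had 0.02 in the IgG and changed by -1.004 in LMNB1 and by -0.95 in LAP2B. Gm54867 moved the opposite way under the antibodies: it fell by 1.45 in the IgG and rose by 1.11 in LAP2B (difference -2.55 ± 0.39, adjusted p = 0.00171).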

How the results depend on the processing

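On the relative scale, 325 genes were called. The count was 577 with a pseudocount 10 times larger, 80 with one 10 times smaller, 0 without the filter on low values (8232 at an unadjusted p under 0.05), 1010 among genes of at least 10 kb, 509 with scaling by the library mean and 529 with edgeR, and it ranged from 7 to 461 with 1 library left out. On the deposited scale it was 1 with the smaller pseudocount, 1 with edgeR, and from 0 to 11613 with 1 library left out, the most without EpiLC replicate 3. It was 93 without EpiLC replicate 2. Deposited values are divided by depth before the yeast scaling. When recovered reads were scaled by yeast DNA without that division, the median change was 0.81, against 0.92 on the deposited scale. The count was then 0, with 13890 genes at an unadjusted limma p under 0.05, against 24308. For TE families on the relative scale it was 0 with the median over copies, 16 with at least 100 copies, 87 with scaling by the median gene, and 0 to 1 with 1 library left out. For the difference from LAP2B (168) it was 395 and 26 with the larger and smaller pseudocount, 0 without the filter, 863 among genes of at least 10 kb, and 5 to 232 with 1 library left out. For that from LMNB1 (20) it was 43, 2, 0 and 52 in the same order, and 1 to 21. The cause of these shifts was not tested.

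The difference in background concentration was 0.12 among genes of at least 10 kb and -0.39 to 0.42 with 1 library left out. The stage difference in level also changed sign on some chromosomes. Among genes of at least 10 kb that in the chromosome 6 level was 0.00187, in the chromosome 7 level 0.011 and in the chromosome 17 level -0.00245, and with the mean over genes that in the chromosome 7 level was 0.0066 and in the chromosome 18 level -0.049. With 1 library left out the ranges were -0.019 to 0.0041 for chromosome 3, -0.023 to 0.0018 for chromosome 7, -0.012 to 0.015 for chromosome 8, -0.030 to 0.0045 for chromosome 13 and -0.0023 to 0.031 for chromosome 17.

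Of the 24 named genes that shifted, 24 lost the call without EpiLC replicate 1, 22 without EpiLC replicate 2 and 22 without naive replicate 1, and 0 changed direction. The call was lost by 14 without naive replicate 3, 9 without EpiLC replicate 3 and 6 without naive replicate 2. It was also lost by 24 without the filter on low values and by 19 with the smaller pseudocount. Same-numbered libraries deviated together with correlations of 0.0009 to 0.016 over genes and -0.023 to 0.28 over TE families, so the numbers were not taken as pairs. With the replicate number as a block the gene count was 321, the TE count 0, the LAP2B count 121 and the LMNB1 count 5. In Gm54867, Gm55073, Gm12895, Gm12896, Gm36264, Taco1os and Gm55472, however, replicate 1 was the highest library at both stages. With that block the falls of Gm54867, Gm12895 and Gm36264 kept their size, with limma adjusted p of 1.3e-07, 0.00029 and 2.1e-05. The labels do not say whether same-numbered libraries were made together. Depth limits small genes: 36 to 135 reads at the median gene.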

Other observations

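Variable and constant immunoglobulin genes had negative median log2 changes from naive cells to EpiLCs on the relative scale. The 195 variable-region genes tested had a median of -0.31 with 0 called, and the 13 constant-region genes had a median of -0.35 with 1 called, which fell (0.391% of all genes did). T cell receptor variable genes were nearer to the median, at -0.05 over 119 tested. Of 202 ribosomal RNA annotations tested, 2 were called, Gm54867 and Gm55073, which both fell, where 0.391% of all genes did. The median was 0.04.

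Of the 217 loci of genes that fell, 178 held 1 called gene. The locus with the most, 7 genes that all fell, lies on chromosome 5 (chr5:50116808-50980956, GRCm39) and holds Adgra3, an adhesion G protein-coupled receptor.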
